A study of Bos taurus with 6 samples.

Results

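RGCC, the D-type cyclins and the regulators of the G1 phase around them were examined in primary bovine aortic endothelial cells. They were sought by symbol in the array annotation under 10 gene names (RGCC, CCND1, CCND2, CCND3, CDKN1A, CDKN1B, CDKN2B, CDK4, CDK6 and MYC). Of the 10, 8 genes were found with 9 probe sets, among 9155 named genes and 24016 probe sets in all. RGCC had 2 probe sets, the other 7 genes 1 each, and CDKN1B and CDK6 had none under these symbols. RGCC was picked for its difference in the comparison described here, and the others stand with it for their role in G1. The values of RGCC are therefore a description without a test, and those of the others support nothing beyond themselves.

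The treated group (TGFB1) consisted of 3 arrays from cells that received 5 ng/ml TGF-beta 1 for 24 hours. The basal group consisted of 3 arrays from cells left without it. The cells had been freed from bovine aorta with collagenase and grown in RPMI medium. The labels speak of 3 cultures and name no animals, so the p-values measure the spread between arrays, which may be technical.

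D-type cyclins bind CDK4 or CDK6 early in G1, and the active kinase phosphorylates the retinoblastoma protein RB1, which then releases E2F transcription factors to drive genes of DNA synthesis. CDKN1A and CDKN1B bind cyclin-CDK complexes, and CDKN2B binds CDK4 and CDK6 directly. In epithelial cells TGF-beta is known to hold cells in G1 through more CDKN2B and CDKN1A and less MYC. RGCC, first described as a gene that responds to complement, is a small cell cycle regulator, and in human cells its protein is known to bind CDK1.

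The values are log2 expression after RMA, in which a difference of 1 is a 2-fold change. RMA gives no detection call. Array medians lay between 5.88 and 5.92. The arrays also parted in a way that treatment alone does not account for. The sign of the first principal component (63.4% of the variance) put TGFB1 1, basal 1 and basal 2 together (array set 1). TGFB1 2, TGFB1 3 and basal 3 had the other sign (array set 2). Scores were -10.3, 39.5 and 41.4 in TGFB1 arrays 1 to 3 and -67.8, -38.8 and 36.0 in basal arrays 1 to 3. Sets and treatment are thus partly mixed in this component. TGFB1 1 had the score smallest in size, and on the second component it stood apart at -48.0. Of 9 measured endothelial markers 8 had means above the array medians, among them PECAM1 and CDH5, and KDR lay below. The summed level of the endothelial list ran from 13.62 to 13.95 log2 in TGFB1 arrays and from 13.68 to 14.16 in basal arrays. CLDN5 alone was called by limma, at -3.17 log2. TGFB1 arrays also lay wholly below basal arrays for PECAM1 (-0.52), CDH5 (-0.57), KDR (-0.67) and VWF (-0.17). They lay wholly above for EMCN (0.82), while TEK, TIE1 and NOS3 overlapped. Over all named genes 15.1% lay wholly below and 8.18% wholly above. Of 7 smooth muscle markers TAGLN alone was higher by limma, and the summed level was 12.10 to 12.48 log2 in TGFB1 arrays against 10.41 to 10.73 in basal arrays. Sums were taken before the log, and TAGLN (11.92 to 12.33 log2 in TGFB1 arrays, 9.78 to 10.18 in basal arrays) made up most of this one. Every other measured smooth muscle marker overlapped between the groups. No marker of fibroblasts (6 measured), pericytes (4), leukocytes (5) or epithelium and mesothelium (6) passed. The summed fibroblast level was 11.93 to 12.74 log2 in TGFB1 arrays against 11.80 to 12.13 in basal arrays, and pericyte, leukocyte and epithelial sums stayed between 7.19 and 8.03 in both groups. The part of these markers in the values below was not tested, and in RNA from whole cultures fewer cells that carry a transcript and less of it per cell cannot be told apart.

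RGCC (Entrez gene 614348) was far higher after TGF-beta 1 on its brighter probe set. That probe set read 10.61, 9.63 and 9.52 log2 in TGFB1 arrays 1 to 3, against 7.48, 7.05 and 6.38 in basal arrays 1 to 3. The lowest treated array thus stood above the highest basal array by more than the whole spread within either group. Means were 9.92 ± 0.60 in TGFB1 and 6.97 ± 0.55 in basal arrays (SD, n = 3 each), a difference of 2.95 log2 or 7.72-fold with a 95% interval of 3.96 to 15.1.

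The other probe set of RGCC did not show this. It read 5.65, 5.55 and 5.46 log2 in TGFB1 arrays and 5.68, 5.33 and 5.26 in basal arrays. The groups overlapped, with basal 1 the highest of all 6 arrays, and every value lay below the array medians. Its difference was 0.13 log2 with a 95% interval of -0.21 to 0.47. The large difference of RGCC thus rests on 1 probe set, and the annotation does not say which transcript either of them reads.

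Among the D-type cyclins, CCND3 was lower in every TGFB1 array, while CCND1 and CCND2 overlapped between the groups, and none of the 3 passed the limma threshold of 0.05 after Benjamini-Hochberg adjustment over all probe sets. CCND3 (Entrez gene 540547), the D-type cyclin best known from lymphoid cells, read 8.43, 8.71 and 8.61 log2 in TGFB1 arrays against 9.56, 9.43 and 8.90 in basal arrays. The groups did not overlap, though basal 3 came close to the treated arrays. The difference was -0.71 log2 (SE 0.19, 95% interval -1.18 to -0.24, limma adjusted p = 0.182). Without basal 3 CCND3 stood at -0.91 and passed (limma adjusted p = 0.0204), in a fit that called 8.38% of all probe sets. It did not pass without any of the other 5 arrays (limma adjusted p from 0.375 to 0.506) or with the array sets described above kept as a block (0.114).

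CCND1 (Entrez gene 524530), the D-type cyclin that many mitogens induce, read 7.67, 6.28 and 6.57 log2 in TGFB1 arrays against 7.75, 7.88 and 5.79 in basal arrays. Its high arrays were TGFB1 1, basal 1 and basal 2, the arrays of array set 1. The sets were drawn from these same arrays, and what lies behind this pattern was not tested. The difference of -0.30 log2 had an SE of 0.66 and an interval of -1.91 to 1.31 (limma adjusted p = 0.890), which leaves room for a several-fold change either way. With the array sets kept as a block in the fit its sign turned, to 0.25.

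CCND2 (Entrez gene 615414), a paralog of both, read 9.30, 8.22 and 8.68 log2 in TGFB1 arrays against 8.77, 8.64 and 7.25 in basal arrays. Basal 3 was the lowest array and TGFB1 1 the highest, and the groups overlapped. The difference was 0.51 log2 (SE 0.48, interval -0.67 to 1.68, limma adjusted p = 0.716). Without basal 3 it was 0.02.

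CDK4 (Entrez gene 510618), the kinase that D-type cyclins activate, was lower in every TGFB1 array. It read 9.46, 9.59 and 9.52 log2 in TGFB1 arrays and 10.39, 10.20 and 10.06 in basal arrays. The treated arrays lay within a narrow band (9.52 ± 0.06, SD, n = 3) well apart from the basal mean of 10.22 ± 0.16. The difference was -0.69 log2 (SE 0.11), a 1.62-fold difference with an interval of 1.34 to 1.95, and it did not pass (limma adjusted p = 0.0702). CDK4 passed with the array-set block (-0.67, limma adjusted p = 0.0307), in a fit that called 5.61% of all probe sets. It also passed without basal 3 (-0.77, limma adjusted p = 0.0219), in a fit that called 8.38%. It did not pass without any of the other 5 arrays (limma adjusted p from 0.166 to 0.283) or with limma-trend (0.130). Without those 5 arrays in turn its difference ran from -0.73 to -0.61, and each fit called 1 or 2 of all 24016 probe sets lower.

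**Figure D1:**
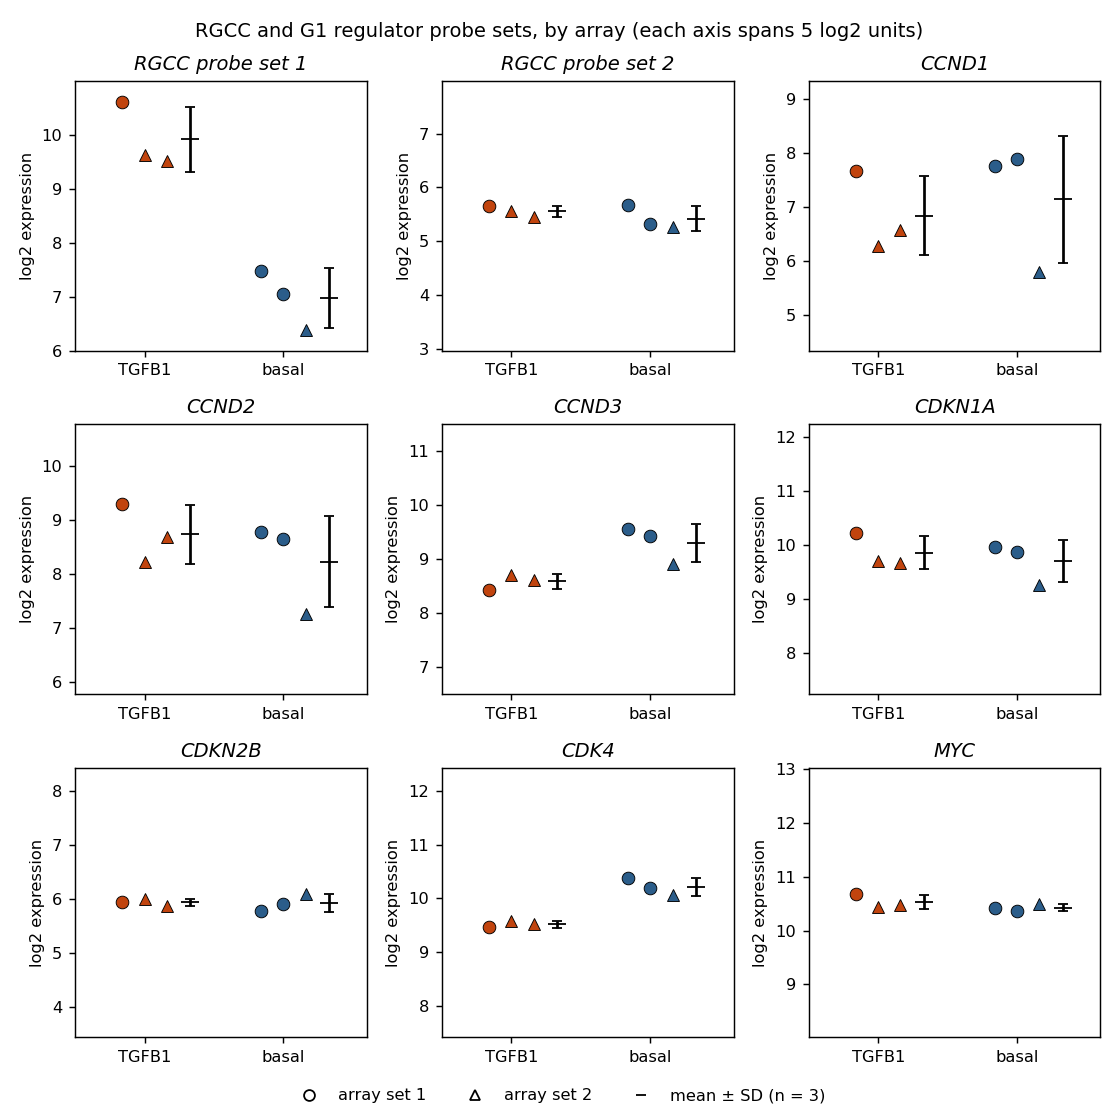
Each panel plots log2 expression of 1 probe set by array, TGFB1 left and basal right, with the mean ± SD (n = 3) beside the points and the array sets as circles and triangles. The groups stand apart for RGCC probe set 1 (9.52 to 10.61 against 6.38 to 7.48), CCND3 and CDK4, and overlap elsewhere.

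The CDK inhibitors CDKN1A and CDKN2B overlapped between the groups. CDKN1A (Entrez gene 513497), a target of p53 that blocks several cyclin-CDK complexes, read 10.22, 9.70 and 9.66 log2 in TGFB1 arrays against 9.97, 9.88 and 9.26 in basal arrays. As with CCND2, TGFB1 1 was the highest and basal 3 the lowest array. The difference was 0.16 log2 (SE 0.25, interval -0.44 to 0.76, limma adjusted p = 0.837), and it was -0.06 without basal 3 and -0.02 without TGFB1 1.

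CDKN2B (Entrez gene 527124), the inhibitor of CDK4 and CDK6 that TGF-beta raises in epithelial cells, read 5.95, 6.0 and 5.87 log2 in TGFB1 arrays and 5.78, 5.91 and 6.09 in basal arrays. These levels lie near the array medians, and both the lowest and the highest were basal. The difference was 0.01 log2 (SE 0.11, interval -0.26 to 0.28, limma adjusted p = 0.977). A change of more than 1.22-fold in either direction lies outside that interval, if the probe set measured the transcript above background at this level, which the values do not show.

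MYC (Entrez gene 511077), the transcription factor that promotes growth and G1 entry, was high in all 6 arrays. It read 10.67, 10.44 and 10.48 log2 in TGFB1 arrays and 10.41, 10.37 and 10.49 in basal arrays. The groups overlapped and spanned a small range. The difference was 0.11 log2 (SE 0.10, interval -0.14 to 0.35, limma adjusted p = 0.715).

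Over the 9 probe sets, RGCC probe set 1 was the only one called by limma, higher in TGFB1 arrays, where 0.304% of all probe sets were called higher. None was called lower, where 0.354% of all probe sets were, and CDK4 and CCND3 were lower at an unadjusted p under 0.05, where 8.37% of all probe sets were. TGFB1 arrays lay wholly above basal arrays for 1 of the 9, against 7.61% of all probe sets, and wholly below for 2, against 11.6%. RGCC was chosen from this comparison, so nothing is read from these counts. The RGCC call was close to the threshold and ended with a further quantile normalization, with robust eBayes and without each of 5 arrays in turn (all but basal 3). Its difference ran from 2.60 without TGFB1 1 to 3.20 without basal 1.

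The difference within each array set was also computed, from 1 TGFB1 and 2 basal arrays in set 1 and from 2 TGFB1 and 1 basal array in set 2. For RGCC probe set 1 it was 3.35 log2 in set 1 and 3.19 in set 2. The SE was 0.14 with the array-set block and 0.39 without it. RGCC was picked for this contrast and the sets were drawn from the same arrays, so these values are not read as support. CCND2 stood at 0.59 in set 1 and 1.20 in set 2, and the block gave 0.89 (SE 0.19, limma adjusted p = 0.0533). CDKN1A likewise lay above 0 in both sets, at 0.30 and 0.42, and the block gave 0.36 (SE 0.09, limma adjusted p = 0.0763).

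CDK4 lay below 0 in both sets, at -0.83 and -0.51, as did CCND3, at -1.06 and -0.24. CCND1 changed sign between them, at -0.14 and 0.64, and so did CDKN2B (0.11 and -0.16) and MYC (0.28 and -0.03). With the block 1 of the 9 probe sets was called higher (RGCC) and 1 lower (CDK4), where 5.61% of all probe sets were called in either direction. These sets were drawn from the data after they were seen, and the labels name no batch. No pass or adjusted p with the block, here or in other paragraphs, is therefore read as support.

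**Figure D2:**
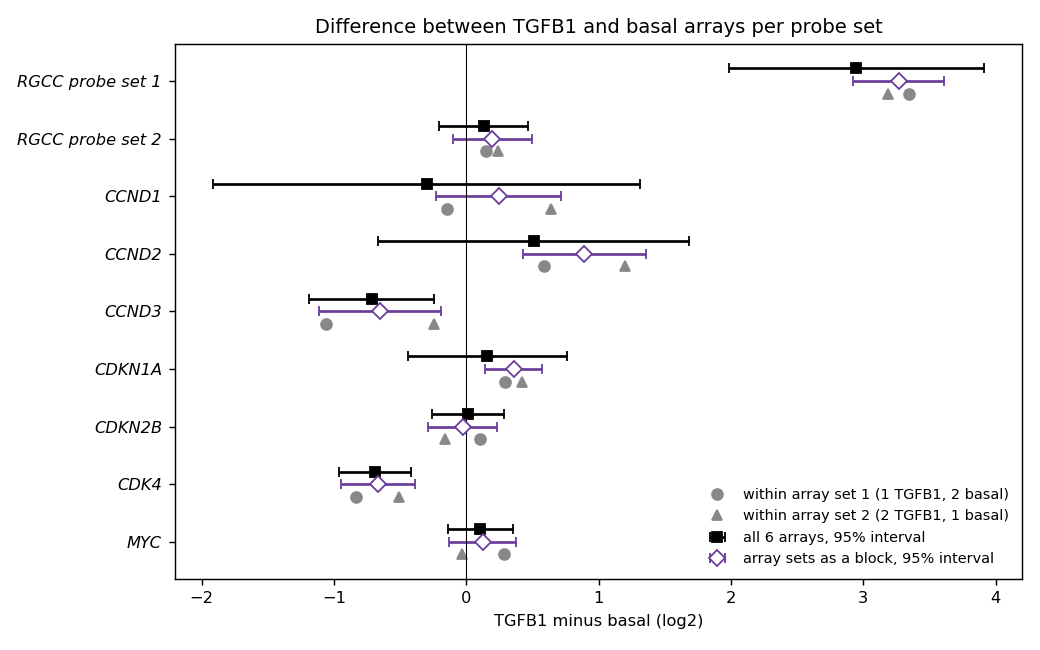
TGFB1 minus basal (log2) per probe set from all 6 arrays (squares) and with the array-set block (diamonds), each with its 95% interval, and the plain differences within array set 1 (circles) and set 2 (triangles). RGCC probe set 1 lies at 2.95, and the wide intervals of CCND1 and CCND2 narrow with the block.

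The genes that act beside these regulators were taken from 6 lists, each gene by its brightest probe set. Over all 9155 named genes the median difference was -0.03 log2, with 44.4% above 0 and 55.6% below, and limma called 0.371% higher and 0.644% lower. At an unadjusted p under 0.05, 6.19% were higher and 12.2% lower, and the unadjusted counts below stand against these shares. The groups did not overlap for 8.18% of named genes with TGFB1 above and for 15.1% with TGFB1 below.

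Of 21 measured G1/S cyclins, kinases and RB-E2F genes, none passed by limma in either direction, with 1 higher and 4 lower at an unadjusted p under 0.05. Their median difference was -0.01 log2. CDKN2C, a further inhibitor of CDK4 and CDK6, read 7.03, 7.95 and 7.87 log2 in TGFB1 arrays against 8.96, 8.94 and 8.87 in basal arrays, a difference of -1.30 (SE 0.25, limma adjusted p = 0.0978). It passed with the array-set block, at -1.44. RB1, the substrate of CDK4, read 8.40, 7.83 and 8.10 log2 in TGFB1 arrays against 6.03, 5.98 and 7.39 in basal arrays, a difference of 1.64 (SE 0.41, limma adjusted p = 0.158). Both genes had groups that stood apart, with TGFB1 arrays low for CDKN2C and high for RB1. LIN37, a subunit of the DREAM complex that represses cell cycle genes, stood at -0.38 (SE 0.13, limma adjusted p = 0.291).

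E2F targets, the genes of DNA synthesis that act after RB1, lay mostly below 0. Of 23 measured, 22 had a difference below 0, the median was -0.52 log2, and TGFB1 arrays lay wholly below basal arrays for 14. Limma called 1 lower (TYMS) and none higher, and 13 were lower at an unadjusted p under 0.05. TYMS, which makes thymidylate, read 8.21, 8.41 and 8.44 log2 in TGFB1 arrays against 9.69, 9.75 and 9.41 in basal arrays, and fell by 1.26 (SE 0.13, limma adjusted p = 0.0344). Its other probe set, much dimmer, stood at -0.29 (limma adjusted p = 0.195). The call ended with limma-trend and without each array in turn except basal 3. Each of those leave-out fits called 1 or 2 of all 24016 probe sets lower. Without basal 3, 8 genes of the list were called lower, in a fit that called 1287 of all 24016 probe sets lower. SLBP, which binds histone mRNA, and MCM7, a subunit of the replicative helicase, stood at -0.46 (SE 0.09, limma adjusted p = 0.0978) and -0.90 (SE 0.18, limma adjusted p = 0.104). With the array-set block 4 genes were called lower, where 692 of all 24016 probe sets were, and all 23 lay below 0. The share of all named genes below 0 with the block was not computed.

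Of the 6 genes listed as partners of RGCC, 5 lay below 0 and none passed by limma, with 2 lower at an unadjusted p under 0.05. The mitotic kinase PLK1 read 7.83, 7.66 and 7.67 log2 in TGFB1 arrays against 8.86, 8.54 and 8.19 in basal arrays, a difference of -0.81 (SE 0.18, limma adjusted p = 0.126). CCNB1, the mitotic cyclin, stood at -0.66 (SE 0.17, limma adjusted p = 0.161), and TGFB1 arrays lay wholly below basal arrays for both. Each of these passed with the array-set block. AKT1 stood at -0.31 (SE 0.27, limma adjusted p = 0.699), with its groups overlapping. Its other probe set stood at -0.47 (limma adjusted p = 0.6335), also with overlap. CDK1, the kinase that RGCC binds, stood at -0.08 with an SE of 0.52, a spread too wide to place it.

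Of 13 measured genes of D-type cyclin and p27 turnover, 9 lay below 0, the median was -0.20 log2 and none passed by limma, with 1 lower at an unadjusted p under 0.05. CRYAB, a small heat shock protein that in human cells joins FBXO4 in the ubiquitin ligase for cyclin D1, read 5.33, 5.49 and 5.52 log2 in TGFB1 arrays against 6.28, 5.96 and 6.17 in basal arrays. Its difference was -0.69 (SE 0.12, limma adjusted p = 0.0758), and it passed with the array-set block. CKS1B, which helps SKP2 to mark p27 for destruction, stood at -0.57 (SE 0.24, limma adjusted p = 0.379) and passed with that block, at -0.76. The deubiquitinase USP2 was at -0.34 (SE 0.18, limma adjusted p = 0.511). It was dim, with means of 4.00 log2 in TGFB1 and 4.34 in basal arrays, below the 25th percentile of each array.

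Of 21 measured genes of the MYC network and MYC targets, 16 lay above 0 and the median was 0.32 log2, while MYC itself stood at 0.11. None passed by limma, with 5 higher and 1 lower at an unadjusted p under 0.05. MXD3, a partner of MAX that opposes MYC, read 6.40, 6.07 and 6.25 log2 in TGFB1 arrays against 7.56, 7.17 and 7.07 in basal arrays, a difference of -1.03 (SE 0.16, limma adjusted p = 0.0678). Its 2 other probe sets stood at -0.52 and -0.10. NOLC1, a nucleolar protein, and MYCBP, a MYC-binding protein, stood at 0.60 (SE 0.11, limma adjusted p = 0.0945) and 1.85 (SE 0.40, limma adjusted p = 0.120). TGFB1 arrays lay wholly above basal arrays for both, and MYCBP ranged widely among basal arrays, from 6.43 to 8.07. The other probe set of NOLC1 stood at 0.45 (limma adjusted p = 0.393). With the array-set block 3 of the list were called higher and 1 lower. That fit called 656 of all 24016 probe sets higher and 692 lower.

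Targets of p53, the factor that induces CDKN1A, had a median of -0.19 log2 over 12 measured genes, with 4 above 0 and 8 below. None passed by limma, with 2 lower at an unadjusted p under 0.05. DDB2, which recognises damaged DNA, read 5.77, 6.14 and 6.10 log2 in TGFB1 arrays against 7.34, 7.34 and 6.47 in basal arrays, a difference of -1.05 (SE 0.27, limma adjusted p = 0.166). Its 2 other probe sets stood at -0.30 and -1.07. XPC, of the same repair pathway, was at -0.55 (SE 0.20, limma adjusted p = 0.301) and the phosphatase PPM1D at -0.42 (SE 0.18, limma adjusted p = 0.392).

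**Figure D3:**
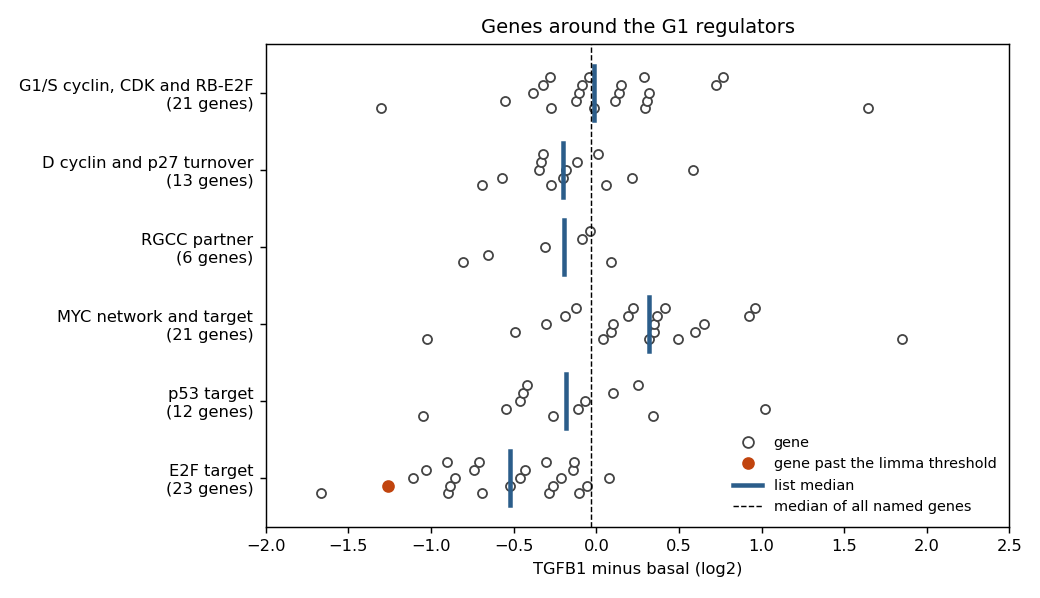
TGFB1 minus basal (log2) of each measured gene in the 6 lists, with list medians as bars and the median of all named genes (-0.03) as a dashed line. The E2F targets lie to the left (median -0.52, TYMS past the limma threshold) and the MYC list to the right (median 0.32).

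The genes whose pattern over the 6 arrays was most like that of RGCC probe set 1 were sought among the other 9147 named genes by Pearson correlation. CTSH, a lysosomal protease, came first at r = 0.999, followed by the transcription factor SNAI1 at 0.998, the laminin chain LAMA4 at 0.996, the zinc carrier SLC39A14 at 0.995, and the iodotyrosine deiodinase IYD at 0.994. All 6 arrays share the treatment contrast and the array sets, so such values describe these arrays only. Each of the 5 was highest in TGFB1 1 and lowest in basal 3, as RGCC was. Their sizes differed widely from the 2.95 of RGCC. CTSH read 12.44, 11.95 and 11.80 log2 in TGFB1 arrays against 10.65, 10.48 and 10.06 in basal arrays, a difference of 1.67, while SNAI1 stood at 1.01, SLC39A14 at 0.71, IYD at 0.58 and LAMA4 at 0.46. The choice by likeness to RGCC fixes that their groups stand apart, so no test is given for them.

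**Figure D4:**
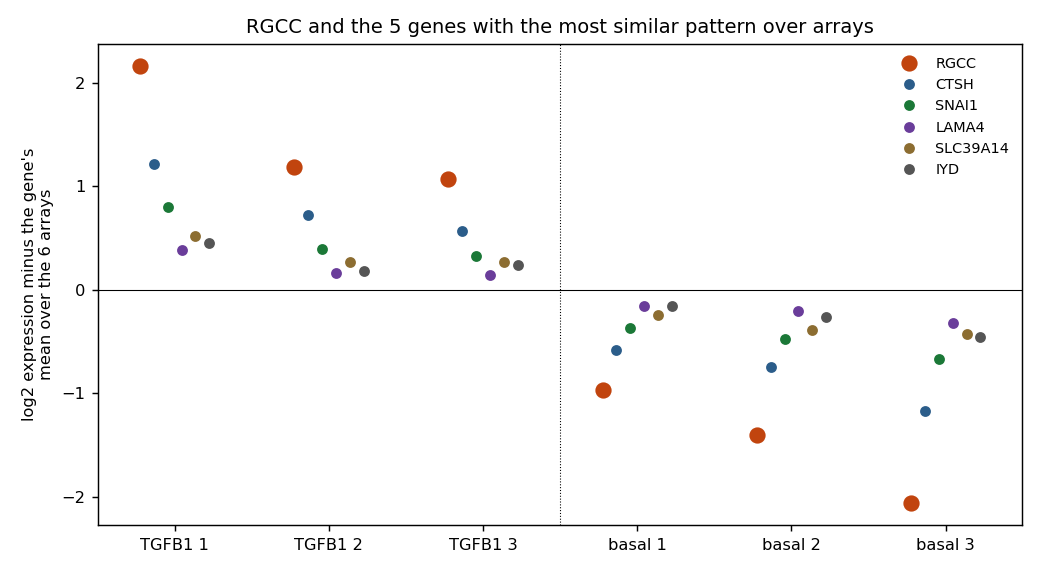
Log2 expression minus each gene's mean over the 6 arrays, for RGCC probe set 1 and the 5 named genes most like it, by array (TGFB1 left, basal right). All 6 genes lie above 0 in the TGFB1 arrays and below 0 in the basal arrays, and RGCC has the widest range.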

How the data were processed

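The authors deposited log2 expression per probe set of an Affymetrix bovine array, which the submitters' processing notes credit to RMA and affy without a version. RMA normalizes by quantiles and compresses changes near background. Of 24128 probe sets, 112 AFFX controls were left out. The array annotation gave 1 symbol for 13292 of the remaining 24016, several for 86 and none for 10638. All 9 probe sets of the G1 regulators matched the RefSeq table of ARS-UCD2.0 by gene identifier, and that table served for names and gene order only. All 6 columns were used. Array number limits the precision.

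TGFB1 arrays were set against basal arrays with limma 3.58.1 (R 4.3.3), using lmFit and eBayes with no covariate, 4 residual degrees of freedom and two-sided tests. Benjamini-Hochberg adjustment covered the 24016 probe sets, with a threshold of 0.05 and no filter on dim probe sets. The members, lists and tests were chosen with earlier results of these data known. The text names every probe set of the 10 genes, from each list the 3 genes with the smallest unadjusted p, and the 5 genes most like RGCC. CDK1 was added after its value was seen, as were the cell markers named. On simulated data the fit recovered 53% of changes of 1 log2 and 81.6% of changes of 2 log2. A gene that did not pass may thus still have changed. Of 711 calls on the simulated data 38 were false. The simulated noise was independent between arrays, unlike the shared parting of arrays described above. Same-numbered arrays deviated from their group means with correlations of 0.67, -0.45 and 0.69, so the numbers were not treated as pairs. Alternatives were other normalizations, variance models, array weights, a replicate block, filters, 1 probe set per gene, other thresholds, leaving out each array and, chosen after seeing the data, the array-set block. Figures used matplotlib 3.10.9.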

Additional observations from a re-analysis of the deposited data

How the results depend on the processing

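Of 32 named differences, 28 kept their sign under every alternative run. The exceptions were CCND1, CCND2, CDKN1A and CDKN2B, none of which passed in the fit of all 6 arrays. Limma-trend, robust eBayes, the replicate block, the filters, 1 probe set per gene and the other thresholds cannot change a difference. Only the other normalizations, array weights, the array-set block and leaving out an array could turn a sign. The list genes and those like RGCC were also picked from these data. With the array-set block CCND1 was at 0.25 and CDKN2B at -0.026. CCND2 was at -0.16 and CDKN1A at -0.14 with array weights. Leaving out each array in turn gave -0.98 to 0.071 for CCND1, -0.062 to 0.29 for CDKN1A and -0.062 to 0.096 for CDKN2B. The replicate block left no probe set called by limma in either direction (0 higher and 0 lower of 24016, with 4450 at an unadjusted p under 0.05), so RGCC and TYMS lost their calls and the counts for the G1 regulators and E2F targets were 0. Of 6 arrays 4 correlated best with their own number. RGCC also lost its call (0 higher) with a further quantile normalization, robust eBayes and a threshold of 0.01, and TYMS (0 lower) with limma-trend and the threshold of 0.01. Over all probe sets 43 were called lower with the quantile normalization and 34 with limma-trend, against 85, and 1 higher and 1 lower at 0.01. At 0.1 there were 226 higher and 317 lower, among them 1 of the G1 regulators lower (CDK4), 1 lower each of the G1/S and turnover lists, 1 higher and 1 lower of the MYC list and 2 lower of the E2F targets. With 1 probe set per gene 1 of the MYC list was called lower.

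The estimation of array weights stopped early and gave basal 2 a weight of 29.9 against 0.175 to 1.83 for the others. It called 5028 probe sets higher and 6320 lower. Among the G1 regulators 2 were then higher and 3 lower, among G1/S genes 6 and 6, turnover genes 2 and 7, RGCC partners 1 and 3, the MYC list 10 and 5, p53 targets 3 and 5, and E2F targets 1 and 15. The array-set block called 656 higher and 692 lower, with 1 lower among the G1 regulators, 1 among G1/S genes, 2 each among turnover genes and RGCC partners, 3 higher and 1 lower in the MYC list and 4 lower among E2F targets.

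Leaving out each array in turn moved the calls over all probe sets from 0 to 725 higher and from 1 to 1287 lower, with the highest counts without basal 3. The counts ran from 0 to 1 higher and 0 to 2 lower for the G1 regulators, and from 0 to 8 lower for E2F targets. They ran from 0 to 3 higher for G1/S genes, 0 to 5 higher and 0 to 1 lower for the MYC list, 0 to 1 lower for turnover genes and for RGCC partners, and 0 to 2 lower for p53 targets. Without basal 3 the basal arrays left are both of array set 1. The causes were not tested.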

Other observations

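Of the genes directly beside the 10 sought ones in the RefSeq gene order, 7 of 20 had a probe set and none was called by limma (adjusted p from 0.310 to 0.981, 1 at an unadjusted p under 0.05). The 3 given here were named after their values were seen. TSPAN31, the neighbour of CDK4, stood at 0.32 log2 (SE 0.12, limma adjusted p = 0.310), where CDK4 stood at -0.69. PARP11 beside CCND2 stood at 0.01 and BYSL beside CCND3 at -0.21.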
